A study of Mus musculus with 7 samples.

Results

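Antisense RNAs are transcripts read from the DNA strand opposite to a coding gene, and the gene table of this mouse lung lavage experiment carries 524 rows of that category among 16476 genes. The 202 antisense RNAs described here were chosen by that category and by their level: the normalized counts of the 7 libraries had to average 10 or more. They were compared between bronchoalveolar lavage (BAL) cells of 4 control and 3 knockout libraries, and each was set beside the coding gene that it opposes. Controls had the genotype LysM Cre and knockouts the genotype Netrin1loxp/loxp LysM Cre, so all animals are labelled as carrying the Cre recombinase and the floxed Netrin1 (Ntn1) alleles were the labelled difference. All were C57BL/6 mice given lipopolysaccharide (LPS) into the trachea, and the cells were washed from the lung 3 days later, depleted of neutrophils with antibodies and pelleted. Cre made from the lysozyme M locus acts in macrophages, monocytes and neutrophils, so other cells of the lavage are not expected to lose the gene. The labels do not say that the libraries came from separate mice, so p-values measure only the spread between libraries.

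Antisense RNAs are a mixed class. Some are long and remain in the nucleus, where their transcription can silence neighbouring genes, as at imprinted loci. Others start from the same promoter region as the coding gene and run away from it, lie within its introns, or meet its end. Many are rare and are degraded in the nucleus by the RNA exosome, and double-stranded RNA that pairs with a coding transcript can be edited or sensed by innate immune receptors.

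The sequences shown first belong to the antisense RNAs on which the results below turn. F630028O10Rik, with the highest mean of the 202 over the 7 libraries, holds the hairpin of the miRNA miR-223, which is typical of myeloid cells and abundant in neutrophils. On chromosome X of GRCm38 the gene spans chrX:96239926-96243636 on the plus strand, and the hairpin begins 2891 bases after its start. The mature arms in RefSeq (build GRCm38.p6) are printed with the seed, bases 2 to 8, in capitals:
miR-223-3p: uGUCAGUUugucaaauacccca
miR-223-5p: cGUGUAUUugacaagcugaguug

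Junos with Jun, and A930024E05Rik with Kdm2b, are pairs in which the antisense RNA and the coding gene start close together and point away from each other. In RefSeq the starts lie 95 bases apart for Junos and Jun and 255 bases apart for A930024E05Rik and Kdm2b. Each window runs from 250 bases before to 50 bases after a RefSeq start, 5′ to 3′ on the gene's own strand, so that the windows of a pair share 194 and 246 bases, respectively. Junos has 7 RefSeq windows and Kdm2b has 4. For each, the window nearest to that of the other gene of its pair is shown and measured from. The distances and shared bases above hold for that choice only. Capitals mark matches on either strand to TGACNTCA, the core letters of cyclic AMP response and ATF elements, and to GGGCGG, the GC box; these motifs do not overlap here.
Junos, chr4:95052067-95052366, plus strand: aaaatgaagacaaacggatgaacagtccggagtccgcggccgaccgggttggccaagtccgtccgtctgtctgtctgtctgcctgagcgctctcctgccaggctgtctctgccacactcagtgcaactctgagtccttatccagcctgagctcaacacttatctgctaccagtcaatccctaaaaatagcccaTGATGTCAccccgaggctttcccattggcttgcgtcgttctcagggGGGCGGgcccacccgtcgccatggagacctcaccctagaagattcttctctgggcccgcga
Jun, chr4:95052173-95052472, minus strand: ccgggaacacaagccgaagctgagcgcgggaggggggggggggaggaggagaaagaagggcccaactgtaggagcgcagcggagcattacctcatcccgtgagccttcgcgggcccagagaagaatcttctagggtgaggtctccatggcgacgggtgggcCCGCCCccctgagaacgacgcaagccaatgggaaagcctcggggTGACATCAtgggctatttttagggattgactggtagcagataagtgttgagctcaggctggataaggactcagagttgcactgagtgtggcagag
A930024E05Rik, chr5:122989104-122989403, plus strand: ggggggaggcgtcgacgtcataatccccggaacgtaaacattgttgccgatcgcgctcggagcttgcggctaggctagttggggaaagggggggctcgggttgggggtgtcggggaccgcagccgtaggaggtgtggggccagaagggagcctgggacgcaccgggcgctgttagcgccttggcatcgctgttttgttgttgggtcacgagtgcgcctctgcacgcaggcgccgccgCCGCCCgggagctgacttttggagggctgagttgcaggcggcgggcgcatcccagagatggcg
Kdm2b, chr5:122989050-122989349, minus strand: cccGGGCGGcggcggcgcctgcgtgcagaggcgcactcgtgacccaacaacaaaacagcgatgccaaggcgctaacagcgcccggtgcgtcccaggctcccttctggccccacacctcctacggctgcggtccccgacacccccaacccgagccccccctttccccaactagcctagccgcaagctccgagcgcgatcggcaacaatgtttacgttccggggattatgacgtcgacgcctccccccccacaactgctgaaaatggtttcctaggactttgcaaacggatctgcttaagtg

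The shared stretch of Junos and Jun holds 1 match to TGACNTCA and 1 to GGGCGG, and the shared stretch of A930024E05Rik and Kdm2b holds 1 match to GGGCGG and none to TGACNTCA. Of 32851 RefSeq windows of this length, 8.83% hold TGACNTCA and 35.7% hold GGGCGG. RefSeq windows were found for 85 of the 202 antisense RNAs, whose first windows had a median of 8 CG dinucleotides, and for 157 of their coding partners, whose median was 19, beside 7 over all windows. A match gives letters only and no measured binding.

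The 7 libraries held 9903284 to 13353733 reads, and all deposited values corresponded to whole reads within a tolerance of 0.01, so that 3 reads, the limit that a count of 0 allows, were worth 2.65 to 3.76 normalized counts. Ntn1 was nearly absent, with 1, 4, 9 and 3 reads in controls 1 to 4 and 1, 0 and 1 in knockouts 1 to 3, and a difference of -1.54 on the log2(normalized count + 1) scale (exact 2-sided permutation p = 0.0571 over 35 splits, of which the smallest possible is 0.0286). Lyz2, the lysozyme M gene that hosts the Cre, stood at 76927 and 118781 normalized counts in controls 1 and 4, at 770.1 and 721 in controls 2 and 3, and at 909.7 to 1052 in the knockouts. The labels do not give the number of Cre copies, and whether it differs among the controls was not tested. The results that follow are therefore also given without controls 1 and 4 and without controls 2 and 3 where a call is lost. Of the marker lists, all 10 natural killer genes were called higher in knockouts, as were 5 of 10 neutrophil and 6 of 9 epithelial genes; 6 of 11 monocyte and recruited macrophage genes were called lower, and 0 of 10 resident alveolar macrophage genes were called either way (1 higher at an unadjusted limma p under 0.05, and 0 by edgeR or DESeq2). T, B, dendritic and endothelial or stromal lists had 1 gene called higher each (1 of the last also lower), and 0 of 6 erythroid genes were called (also 0 at an unadjusted p under 0.05 and by edgeR or DESeq2), although knockout 1 carried a summed erythroid level of 136630 normalized counts, beside 1254 to 26200 in the other libraries. In such a mixture, fewer cells of a type and less RNA per cell cannot be told apart.

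Across the antisense RNAs, 44 were called lower and 10 higher in knockouts by limma at an adjusted p under 0.05, which is 21.8% and 4.95% of them; over all 12963 genes tested, 11.3% were called lower and 10.4% higher. Their median log2 fold change (knockout against control, on the log2(normalized count + 1) scale) was -0.30, beside 0.01 over all genes tested, and 141 of the 202 lay below 0. The knockout and control values did not overlap in 57 that were lower and 18 that were higher, beside 16.3% and 17.4% of all genes. Among those called, the change reached at least 2-fold in 29 lower and 7 higher antisense RNAs. These counts are a description, because the rule favours rows that are high in controls: the mean weighs 4 control against 3 knockout libraries, and 35 of the 202 had a knockout mean under 10 while 2 had a control mean under 10. Among those called lower, 15 had a knockout mean under 10. They include 2900089D17Rik, Gm26811 and Gm2245, which passed the minimum through their control values. Gm20069 and Gm6277 are the 2 with a control mean under 10 and passed it through their knockout values. The changes given below for such RNAs are not independent of the rule. With no minimum, 71 of all 524 rows (13.5%) were called lower and 11 (2.1%) higher, with a median of -0.40, beside 9.71% and 8.18% of all 16476 genes in that fit. The rule's edge is sharp in the values: Kdm6bos (mean 10.06 normalized counts) and 6330562C20Rik (10.05) are the last inside, and Gm20548 (9.94) and Gm45820 (9.90) the first outside.

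These RNAs were rare. The median of their mean levels was 20.9 normalized counts, 162 of the 202 lay under 50 and 20 reached 100. The counts of calls moved with single libraries: the 44 lower became 21 without control 2, 24 without control 4 and 19 without knockout 2, when 7.14%, 7.04% and 6.25% of all genes were called lower. The 10 higher became 6 without control 1, 6 without knockout 1 and 5 without knockout 2, when 8.88%, 9.05% and 5.35% of all genes were called higher. Without controls 1 and 4 together 15 were called lower and 5 higher, when 4.45% and 4.8% of all genes were called so. Without controls 2 and 3 together the counts were 12 and 5, beside 4.78% and 4.74% of all genes. Called in each of the 7 fits that left out a library were 16 of the 44 lower and 5 of the 10 higher, and the text below turns on these.

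F630028O10Rik, the host of miR-223, was higher in knockouts. It stood at 808, 786, 584 and 752 normalized counts in controls 1 to 4 and at 2468, 1146 and 1198 in knockouts 1 to 3. The groups did not overlap, and knockout 1 was higher than the other libraries. The log2 fold change was 1.05 (SE 0.25, limma adjusted p = 0.0201), it was 0.69 without knockout 1 (adjusted p = 0.00933), and the adjusted p was 0.0791 without controls 1 and 4 and 0.115 without controls 2 and 3. The 10 neutrophil markers moved alongside: their summed level was 14843 to 17630 normalized counts in controls and 66833, 21693 and 22896 in knockouts 1 to 3, with S100a9 called higher at a log2 fold change of 1.61 (adjusted p = 0.0932 without controls 1 and 4 and 0.0835 without controls 2 and 3). The part of neutrophil RNA in the level of F630028O10Rik was not tested, and the mature miRNA was not measured. No coding gene lies opposite F630028O10Rik, and the nearest is Vsig4, 3567 bases away.

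Gm14029 had the smallest p of all 202. It stood at 63.0, 75.3, 71.7 and 71.5 normalized counts in controls and at 188, 151 and 169.8 in knockouts, with no overlap. The log2 fold change was 1.25 (SE 0.12, adjusted p = 0.0007), and the call held without controls 1 and 4 (0.00979) and without controls 2 and 3 (0.00696). Gm14029 lies at chr2:129182482-129183947 on the minus strand, has no coding gene opposite it and is 14817 bases from Slc20a1, which encodes a phosphate transporter. 2810001G20Rik, which starts 16 bases from Cox10, a gene of haem A synthesis, stood at 41.6, 42.1, 45.1 and 46.4 in controls and at 71.0, 69.2 and 68.7 in knockouts. Neither group spread over more than 5 counts, and its log2 fold change was 0.66 (SE 0.13, adjusted p = 0.0103), with an adjusted p of 0.054 without controls 1 and 4 and 0.0614 without controls 2 and 3.

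A930024E05Rik, which runs away from Kdm2b as shown in the windows above, rose while the test of Kdm2b missed the threshold. The antisense RNA stood at 38.6, 59.7, 40.7 and 58.9 normalized counts in controls and at 112, 139 and 117 in knockouts, with no overlap. Its log2 fold change was 1.31 (SE 0.20, adjusted p = 0.0031), and the call held without either pair of controls. Kdm2b, which encodes a histone demethylase of Polycomb complexes, stood at 302, 329, 284 and 369 in controls and at 368, 535 and 401 in knockouts, with a log2 fold change of 0.43 and an adjusted p of 0.063. The log2 ratio of A930024E05Rik to Kdm2b was higher in knockouts by 0.89 (SE 0.15, limma adjusted p = 0.00913), and the adjusted p was 0.0555 without controls 1 and 4 and 0.0588 without controls 2 and 3. A ratio of this kind shows unequal change between the genes; its level compares no abundances, since the transcripts differ in length.

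Gm13546 lies inside Cytip, a gene for a cytohesin-binding adaptor of leukocytes, and both rose. Gm13546 stood at 20.3, 53.8, 26.5 and 27.6 normalized counts in controls and at 79.1, 142 and 117 in knockouts, with control 2 the highest control. The log2 fold changes were 1.84 (SE 0.33, adjusted p = 0.0065) for Gm13546 and 0.91 (adjusted p = 0.0007) for Cytip, which stood at 2676 to 3039 in controls and 4982 to 6035 in knockouts. Their ratio was higher by 0.92, at an adjusted p of 0.0711. The 10 natural killer markers moved alongside, with a summed level of 10964 to 17983 normalized counts in controls and 51643 to 56939 in knockouts, and their part in the levels of Gm13546 and Cytip was not tested.

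**Figure D1:**
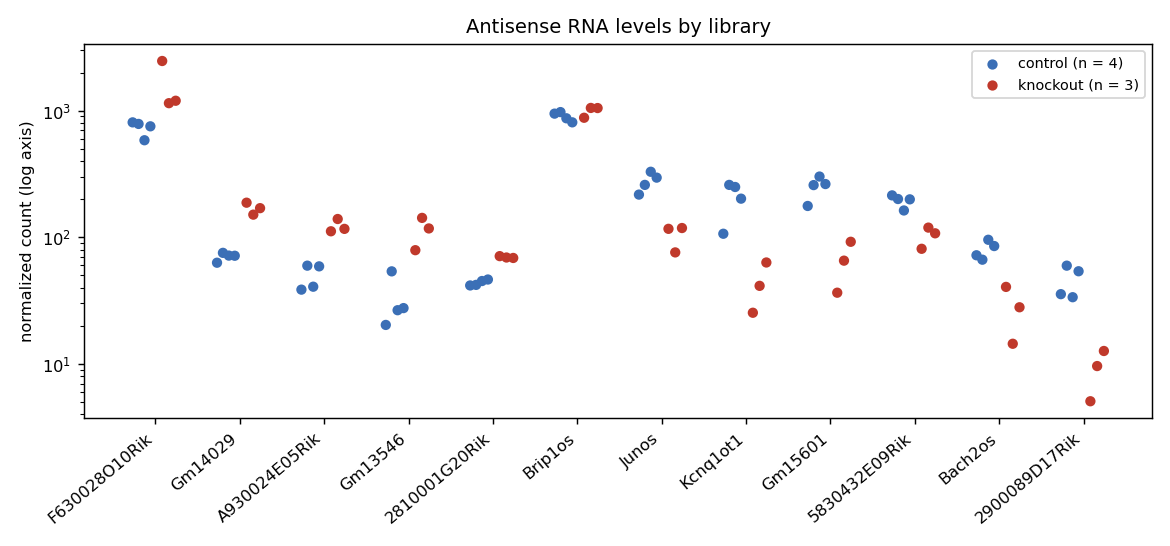
Normalized counts (log axis) of 12 antisense RNAs in each library, with the 4 controls in blue and the 3 knockouts in red, each in the order of the replicate number. The first 5 are higher in knockouts without overlap, Brip1os overlaps between 809 and 1051, and the last 6 are lower in knockouts without overlap.

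The other 5 antisense RNAs called higher lost the call when single libraries were left out. Gm20069 in Itpk1, an inositol phosphate kinase gene, stood at 1.77 to 8.78 normalized counts in controls and 15.4 to 25.3 in knockouts, and its adjusted p of 0.0355 became 0.0705 to 0.0973 without control 2 or any 1 knockout. Gm6277, opposite the start of Cables1, stood at 3.91 to 8.78 and 12.6 to 25, and its adjusted p of 0.0264 became 0.0532 to 0.107 without control 1 or 2 or knockout 1 or 2. AU040972 in Nf1, a Ras GTPase-activating protein gene, stood at 3.54 to 17.6 and 20.8 to 52.7. Its adjusted p of 0.0431 became 0.0508 to 0.122 without control 1, 3 or 4 or knockout 1 or 2, and Nf1 itself fell by 0.58 (adjusted p = 0.0057). 5830468F06Rik in Kbtbd11 (adjusted p = 0.0449) lost the call in 6 of 7 such fits, with control 2 the exception, and Gm31597 in the sulfotransferase gene Sult2b1 (0.0457) lost it in all 7, with adjusted p-values up to 0.16 and 0.176. Kbtbd11, called higher at 0.44 (adjusted p = 0.0332), lost its call at 0.0713 to 0.102 without control 1, control 4 or knockout 2 and at 0.195 without controls 1 and 4. Gm20069 kept the call without controls 1 and 4 (0.0421) and the other 4 antisense RNAs lost it (0.0771 to 0.213); without controls 2 and 3 all 5 lost it (0.0571 to 0.175).

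Among antisense RNAs that were lower, Junos was the most abundant of those with a called fall that held in each left-out fit. It stood at 217, 259, 329 and 296 normalized counts in controls 1 to 4 and at 117, 76.0 and 118 in knockouts 1 to 3, and the highest knockout lay well under the lowest control. Jun, which encodes a subunit of the transcription factor AP-1 and starts beside it, stood at 2321, 2421, 2201 and 2146 in controls and at 2279, 2147 and 2167 in knockouts, with the groups overlapping. The log2 fold change was -1.41 (SE 0.19, adjusted p = 0.0022) for Junos and -0.05 (SE 0.07, adjusted p = 0.645) for Jun. The log2 ratio fell by 1.37 (SE 0.23, adjusted p = 0.0077), with an adjusted p of 0.0432 without controls 1 and 4 and 0.0728 without controls 2 and 3. In the GENCODE annotation (release M21), Junos spans chr4:95051534-95167318 on the plus strand, and 232 of its 4117 exonic bases lie under exons on the other strand.

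Kcnq1ot1, a long nuclear RNA made from the paternal chromosome that silences imprinted genes around it, was also lower. It stood at 107, 259, 249.6 and 202 normalized counts in controls and at 25.3, 41.3 and 63.2 in knockouts, and control 1 was the lowest control. The log2 fold change was -2.23 (SE 0.37, adjusted p = 0.0046), with an adjusted p of 0.0119 without controls 1 and 4 and 0.0462 without controls 2 and 3. It is unspliced and spans chr7:143203458-143296549 on the minus strand, inside Kcnq1, a potassium channel gene that was not analysed here. Airn, the silencing antisense RNA of the imprinted receptor gene Igf2r, was looked at after its values were known. Airn stood at 31.5, 53.8, 69.9 and 41.4 in controls and at 39.5, 13.5 and 20.8 in knockouts, with overlap, and its log2 fold change of -1.04 was not called (adjusted p = 0.0817), whereas Igf2r fell by 0.63 (adjusted p = 0.0061, and 0.0551 without controls 1 and 4).

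Of the 27 antisense RNAs that carry a coding gene in their symbol, 8 were called lower and 0 higher, beside the 11.3% and 10.4% of all genes, and their median log2 fold change was -0.36. For higher levels, edgeR called 1 and DESeq2 0 of the 27, and 1 had an unadjusted limma p under 0.05. Junos, Kcnq1ot1 and Bach2os held the call in each left-out fit. Bach2os, within the gene for a transcriptional repressor of lymphocytes, stood at 72.1, 66.5, 95.6 and 85.3 normalized counts in controls and at 40.6, 14.4 and 28.0 in knockouts (log2 fold change -1.60, SE 0.31, adjusted p = 0.0092), with an adjusted p of 0.0634 without controls 1 and 4 and 0.0627 without controls 2 and 3. Bach2 itself had a log2 fold change of 0.11 with overlapping groups (adjusted p = 0.584), and the ratio fell by 1.71 (adjusted p = 0.0212, which became 0.0533 without control 4, 0.105 without controls 1 and 4 and 0.0975 without controls 2 and 3).

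The 5 other named antisense RNAs with a called fall each lost it without some single library. Galnt6os, in a gene of mucin-type glycosylation, had a log2 fold change of -1.30 and its adjusted p of 0.0184 became 0.0559 and 0.0663 without control 2 or knockout 2. Galnt6 was called lower too, with a log2 fold change of -0.39 (adjusted p = 0.0104, and 0.0585 without controls 1 and 4). Far1os, in a fatty acyl-CoA reductase gene, had -1.86 (0.0237, and 0.0502 to 0.0742 without control 2, 3 or 4 or knockout 1 or 2). Tnfsf13os, around the gene of the cytokine APRIL, had -0.97 (0.0217, and 0.0518 to 0.06 without control 2 or 4 or knockout 1 or 3). Adap2os fell by 0.91 together with Adap2, which fell by 0.73: the adjusted p of Adap2os, 0.0372, became 0.0662 to 0.122 without control 2, 3 or 4 or knockout 2 or 3, and that of Adap2, 0.0205, became 0.0531 and 0.0678 without control 2 or knockout 2. Kdm6bos, in the gene of a histone H3 lysine demethylase induced by LPS, had -1.22 (0.0332, and 0.0634 to 0.094 without any 1 library other than control 3). Adap2os kept the call without controls 1 and 4 (0.039) and the other 4 lost it (0.0657 to 0.134). Without controls 2 and 3 all 5 lost it (0.0888 to 0.204), as did Adap2 (0.113).

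Among the named antisense RNAs without a call, Brip1os had the highest mean of the 202 after F630028O10Rik, and it was above F630028O10Rik in every control. Brip1os stood at 948, 975, 871 and 809 normalized counts in controls and at 879, 1051 and 1049 in knockouts, a log2 fold change of 0.14 with overlap (adjusted p = 0.314). Zeb2, a transcription factor gene of mononuclear phagocytes, fell by 0.84 (adjusted p = 0.0018) while Zeb2os had -0.36 (0.369), and their ratio was not called (difference 0.48, adjusted p = 0.312). Zmiz1 fell by 0.68 (adjusted p = 0.0007) and Zmiz1os1 had -0.69 (0.0787). Il1bos, opposite the start of the cytokine gene Il1b, stood at 57.9, 40.1, 29.2 and 33.9 in controls and at 51.7, 51.0 and 32.5 in knockouts (0.18, adjusted p = 0.676), and Il1b had 0.57 (0.176). Hopxos, with 0.78, had the highest log2 fold change of the 27 and an adjusted p of 0.053.

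A further 3 of the 5 most abundant antisense RNAs were not tied to a symbol. 4930430E12Rik, which has no coding partner, stood at 693, 695, 526 and 544 normalized counts in controls and at 457, 434 and 420.1 in knockouts. It fell by 0.48 (adjusted p = 0.0207), which became 0.0549 to 0.0653 without control 2 or knockout 2 or 3, 0.0751 without controls 1 and 4 and 0.0571 without controls 2 and 3. Gm15564, at the tail of the ADP-ribosyltransferase gene Parp9, stood at 791, 254, 301 and 666 in controls and at 592, 582 and 491 in knockouts. Controls 1 and 4 were high and controls 2 and 3 low, the same division as for Lyz2, and the log2 fold change was 0.30 (adjusted p = 0.594). 1700071M16Rik, in the platelet-activating factor acetylhydrolase gene Pla2g7, stood at 284, 466, 466 and 453 in controls and at 328, 184 and 280.0 in knockouts (-0.67, adjusted p = 0.0685).

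The remaining called antisense RNAs without a symbol link that held in each left-out fit were 13, all lower. Gm15601, which meets the phospholipase gene Ddhd1 tail to tail, stood at 177, 258, 302 and 263 normalized counts in controls and at 36.5, 65.4 and 92.1 in knockouts (log2 fold change -2.0, SE 0.30, adjusted p = 0.003). Ddhd1 fell by 0.91 (adjusted p = 0.0038), and the ratio fell by 1.09 (adjusted p = 0.023, which became 0.0501 to 0.0691 without control 2, 3 or 4 or knockout 1 or 2, 0.0659 without controls 1 and 4 and 0.125 without controls 2 and 3). 4930565N06Rik, inside the gene of the Golgi protein giantin (Golgb1), stood at 58.9, 65.6, 68.1 and 62.7 in controls and at 14.2, 26 and 23.5 in knockouts (-1.59, SE 0.22, adjusted p = 0.0023). The calls of Gm15601 and 4930565N06Rik held without either pair of controls. Golgb1 fell by 0.65 (adjusted p = 0.0183, and 0.0527 to 0.0579 without control 2 or 4 or knockout 2, 0.0965 without controls 1 and 4 and 0.0949 without controls 2 and 3). The ratio of 4930565N06Rik to Golgb1 fell by 0.94 (0.0178, with 0.0659 without controls 1 and 4 and 0.117 without controls 2 and 3).

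5830432E09Rik, inside the receptor phosphatase gene Ptpre, stood at 214, 201, 163 and 199 normalized counts in controls and at 81.1, 119 and 108 in knockouts (-0.93, SE 0.16, adjusted p = 0.005), and Ptpre fell by 0.48 (0.0146, and 0.0549 without knockout 2 and 0.103 without controls 1 and 4). Gm26811, at the tail of the semaphorin receptor gene Plxna1, stood at 42.7, 27.4, 27.4 and 58.9 and at 3.04, 8.65 and 9.94 (-2.34, adjusted p = 0.0065), and Plxna1 fell by 1.30 (0.003). Without controls 1 and 4 the adjusted p was 0.0513 for 5830432E09Rik and 0.0605 for Gm26811. Neither ratio was called (adjusted p = 0.0848 and 0.0531). In these pairs the rows of both genes were lower, and the ratio tests did not separate them. Whether reads were assigned by strand is not known.

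In the next pairs, other than those of Uvrag and Ghrl, the coding gene was not called, or was called the other way. 2900089D17Rik, across the start of Bri3, stood at 35.5, 59.7, 33.6 and 53.9 normalized counts in controls and at 5.07, 9.61 and 12.6 in knockouts (-2.24, SE 0.34, adjusted p = 0.0032). The knockout mean of 2900089D17Rik was under 10, so the rule kept it through its control values. Bri3 had -0.17 (adjusted p = 0.456), and the ratio fell by 2.07 (0.0159, with 0.0589 without controls 1 and 4 and 0.103 without controls 2 and 3).

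Gm15777, across the start of Coq2, a gene of coenzyme Q synthesis, stood at 28.4, 38.2, 31.9 and 33.9 in controls and at 13.2, 11.5 and 17.2 in knockouts (-1.20, SE 0.22, adjusted p = 0.0072, and 0.066 without controls 2 and 3), whereas Coq2 stood at 228, 233, 213 and 248 and at 268, 318 and 315. Coq2 was called higher at 0.38 (adjusted p = 0.0258, and 0.0508 to 0.098 without control 1, 2 or 3 or knockout 2 or 3, 0.0769 without controls 1 and 4 and 0.136 without controls 2 and 3). The ratio of Gm15777 to Coq2 fell by 1.58 (SE 0.18, adjusted p = 0.00238), the smallest p of all pairs of the 202, with 0.0187 without controls 1 and 4 and 0.0413 without controls 2 and 3.

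Gm2245, inside the adaptor gene Fyb, stood at 16.3, 32.3, 32.7 and 22.6 normalized counts in controls and at 0, 2.88 and 6.32 in knockouts, where the reads numbered 0, 3 and 7. Its fitted log2 fold change of -3.09 depends on the added count of 1 (adjusted p = 0.0105, and 0.0982 without controls 2 and 3), and Fyb had -0.24 (0.176). Gm26789 in the ubiquitin ligase gene Herc4 had -1.74, with 37.6 to 46.0 in controls and 8.11, 8.65 and 22.6 in knockouts (adjusted p = 0.0085, with 0.0563 without controls 1 and 4 and 0.0732 without controls 2 and 3). Gm45188 in the autophagy gene Uvrag had -1.87, Gm44949 in Zfp710 had -1.51, Gm12359 across the start of the exon junction gene Casc3 had -1.24, and Gm15445, with no gene opposite, had -1.58 (adjusted p = 0.0093 to 0.014). Uvrag was called lower too, at -0.30 (adjusted p = 0.0445, and 0.0829 to 0.141 without control 1, 3 or 4 or knockout 2 or 3 and 0.244 without controls 1 and 4). Without controls 1 and 4 the adjusted p was 0.1 for Gm44949, 0.0982 for Gm12359 and 0.0957 for Gm15445, and without controls 2 and 3 it was 0.0841 for Gm45188 and 0.06 for Gm15445. Gm26982, which meets the ghrelin gene Ghrl over 3 exonic bases and was picked out after its values were seen, had -0.89 (adjusted p = 0.0168, with 0.0951 without controls 1 and 4 and 0.0896 without controls 2 and 3). Ghrl had a larger called fall, -2.06 (adjusted p = 0.0128, with 0.0941 and 0.0642), from 17.6 to 28.3 normalized counts in controls to 1.92 to 9.03 in knockouts.

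**Figure D2:**
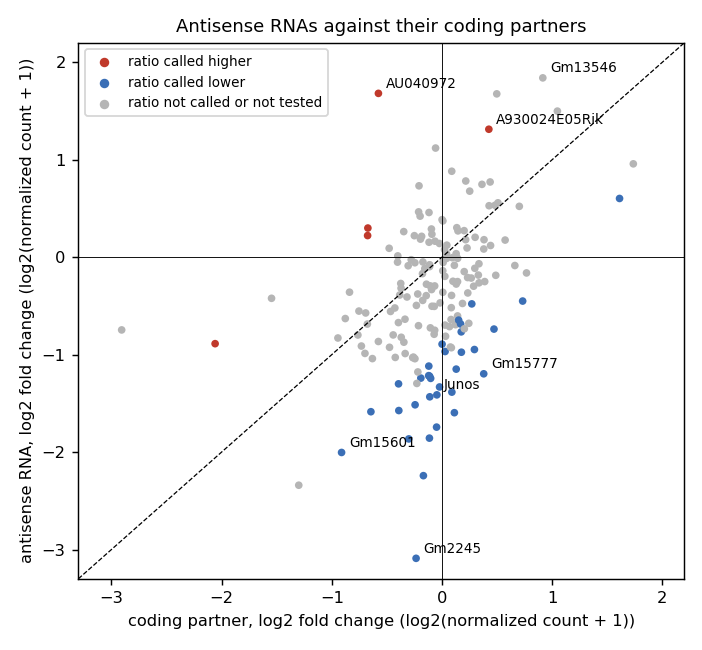
Log2 fold change of each antisense RNA (y axis) against that of its coding partner (x axis), knockout against control on the log2(normalized count + 1) scale, for the 178 pairs with both tested; the dashed line marks equal change. Blue points, whose antisense to coding ratio was called lower, number 33 and red points, called higher, 5; Junos and Gm15777 lie at -0.05 and 0.38 on the x axis and below -1 on the y axis.

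Of the 202, 187 have a coding partner, 27 taken from the symbol and 160 from the overlap of gene bodies on opposite strands, and 177 of the 186 distinct partners were tested. Of these partners 33 (18.6%) were called lower and 20 (11.3%) higher, with a median log2 fold change of -0.06; 11.3% and 10.4% of all genes were called so. Partners higher became 11 without control 2, 12 without control 4 and 9 without knockout 2, and partners lower became 20 without knockout 2. In those fits 6.89%, 6.9% and 5.35% of all genes were called higher, and 6.25% were called lower without knockout 2. Over the 178 pairs with both tested, the log2 fold changes of the antisense RNAs and their partners had a Pearson r of 0.391 and a Spearman rho of 0.387, and 108 pairs shared a sign. This describes pairs that share libraries, and neighbouring genes are not independent.

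Where the antisense RNA was called lower, 13 partners were lower, 25 were not called and 1, Coq2, was higher. Where it was called higher, 5 partners were higher (Cytip, Itpk1, Cables1, Kbtbd11 and Sult2b1), 1 was not called (Kdm2b) and 1 was lower (Nf1). Where it was not called, 19 partners were lower, 14 higher and 99 not called. The ratio itself was tested for 175 pairs among 1497 overlapping pairs of tested genes. It was called in 21.7% of the 175, 33 lower and 5 higher in knockouts, beside 17.8% of the 1497. Of the 33, 19 had a called fall of the antisense RNA and no call of the partner.

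The higher ratios, named after their values were seen, were those of A930024E05Rik to Kdm2b, AU040972 to Nf1, Gm26982 to Ghrl, 1700008J07Rik to Srcap and 4930599N23Rik to Kdm7a. In the ratio of Gm26982 to Ghrl both genes were lower and Ghrl had the larger fall (difference 1.17, adjusted p = 0.0197, and 0.0505 without control 4). The 33 lower ratios became 8, 15 and 12 without controls 2, 3 and 4 and 12 and 10 without knockouts 1 and 2, and the 5 higher became 3, 2, 2 and 2 without control 3, control 4, knockout 1 and knockout 2. Without controls 1 and 4 together 6 were lower and 0 higher, and without controls 2 and 3 together 2 and 0. Calls over all genes fell in these fits too. Without control 2, 3 or 4 or knockout 1 or 2, 7.14%, 9.43%, 7.04%, 9.57% and 6.25% of all genes were called lower. Without control 3 or 4 or knockout 1 or 2, 8.5%, 6.9%, 9.05% and 5.35% were called higher. Without either pair of controls 4.45% to 4.78% were lower and 4.74% to 4.8% higher. The shares of the 1497 pairs in these fits are not given here. Pairs called in each fit that left out a library numbered 6: those of A930024E05Rik, 4930565N06Rik, Gm15777, Junos, 2900089D17Rik and Gm16754. Gm16754 meets Keap1, the gene of the adaptor that holds the stress factor Nrf2 in check, and its ratio to Keap1 fell by 1.151 (SE 0.23, adjusted p = 0.016, with 0.0713 without controls 1 and 4 and 0.0891 without controls 2 and 3). Gm16754 alone lost its call (adjusted p = 0.0454) without any 1 library (0.0508 to 0.146). The ratio of Kdm6bos to Kdm6b fell by 1.11 (0.0145, and 0.0504 without knockout 2, 0.0594 without controls 1 and 4 and 0.0899 without controls 2 and 3).

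**Figure D3:**
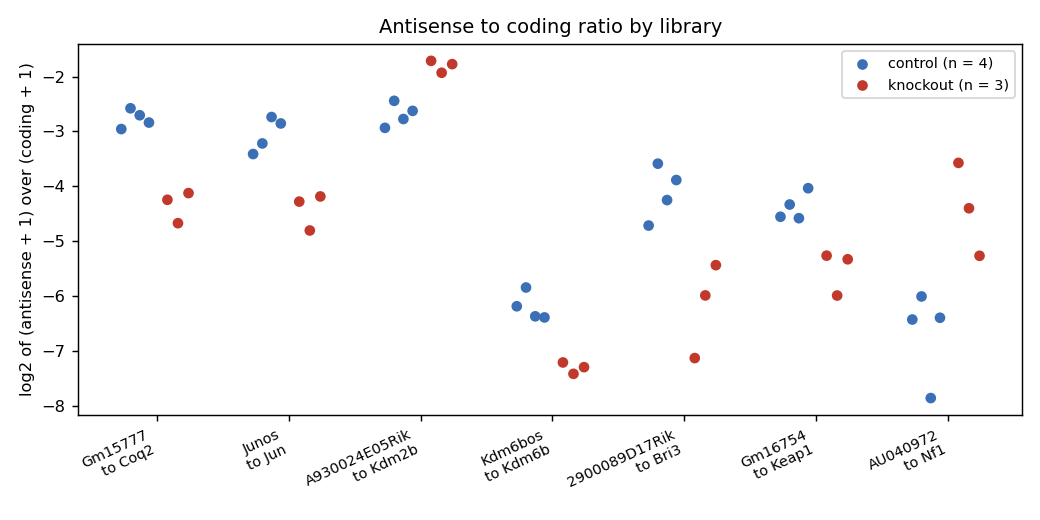
Log2 of the antisense normalized count plus 1 over the coding normalized count plus 1 (y axis) for 7 pairs, with the 4 controls in blue and the 3 knockouts in red in replicate order. Groups do not overlap in any of the 7, and the ratio is higher in knockouts for A930024E05Rik to Kdm2b and AU040972 to Nf1 and lower for the others.

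By position, the 79 antisense RNAs that lie wholly inside their coding gene had 27 called lower (34.2%) and 5 higher (6.33%), beside 11.3% and 10.4% of all genes, with a median log2 fold change of -0.52. Their summed level was 3211, 4147, 3956 and 3771 normalized counts in controls and 2697, 2578 and 2843 in knockouts, with no overlap. The 27 became 11 without control 2, 12 without control 4, 17 without knockout 1 and 10 without knockout 2, and the 5 became 1 or 2 without any 1 library other than control 2. Of all genes, 7.14%, 7.04%, 9.57% and 6.25% were called lower in the former fits, in that order. In the latter fits 5.35% to 9.05% of all genes were called higher. The 47 that meet the coding gene tail to tail had 7 lower (14.9%, near the share of all genes) and 0 higher (also 0 higher by edgeR and DESeq2, and 2 at an unadjusted limma p under 0.05), a median of -0.28, and sums of 2117 to 2462 in controls and 1779 to 1921 in knockouts.

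The 49 that overlap it head to head had 7 lower (14.3%, also near it) and 2 higher (4.08%), a median of -0.05, and sums of 1668 to 1887 and 1446 to 1639. Those around the coding gene had 1 of 9 lower (Tnfsf13os), those named for a gene that they start beside without overlap had 0 of 3 called (also 0 at an unadjusted p under 0.05 and by edgeR or DESeq2), and the 15 with no coding partner had 3 higher, 2 lower (Gm15445 and 4930430E12Rik) and a median of 0.17. Whether the positions differ from each other was not tested.

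**Figure D4:**
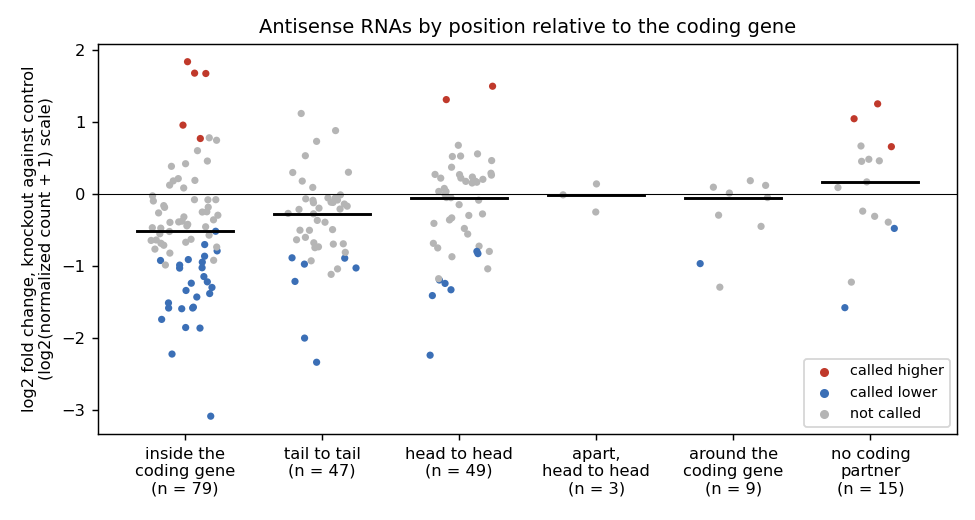
Log2 fold change of each of the 202 antisense RNAs (knockout against control, log2(normalized count + 1) scale) by position relative to the coding gene, with black bars for medians and colours for the limma call. The medians run from -0.52 inside the coding gene to 0.17 where no coding gene lies opposite.

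An RNA inside a gene lies mostly in that gene's introns, so reads from unspliced coding RNA would fall on it if strand were not used in counting. The sources used here do not say whether it was, and without it reads of a gene and its antisense partner cannot be told apart. The share of genes with a row in the table is given here by overlap with exons of the other strand, as a description. Of 94 antisense genes of the annotation with 95 to 100% of their exonic bases under opposite exons, 1 has a row, and of 89 with 75 to under 95%, 1 has a row. The share with a row was 15.4% at 50 to under 75%, 21.1% at 25 to under 50%, 27.3% at over 0 to under 25% and 14.5% at 0%, so that it was not highest where there was no overlap. Of 47 coding genes with 95 to 100% under opposite exons, 0 have a row, beside 78.6% of those with over 0 to under 25% and 54.5% of those with 0%. The cause of these shares was not tested. The antisense RNAs described here had a median of 8.10% of their exonic bases under opposite exons, and 62 had none.

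Other rows that lie in introns or are not yet verified as genes were also lower. Of 26 sense intronic rows tested, 10 were called lower and 0 higher by limma, with a median of -0.91 (edgeR 9 lower, DESeq2 11 lower, unadjusted p under 0.05 in 16 lower, and 0 higher in each). Of 212 rows of the unverified transcript class TEC, 76 were lower and 6 higher, with a median of -0.90. Of 278 lincRNA rows, 49 were lower and 13 higher, and of 11641 coding rows 1237 and 1289. The nuclear RNAs Malat1 and Neat1, looked at after their values were known, fell by 1.14 (adjusted p = 0.0016) and 0.86 (0.0166, and 0.0614 for Neat1 without knockout 2). Antisense rows took 0.0942 to 0.109% of all normalized counts in controls and 0.0884 to 0.0970% in knockouts, with overlap, sense intronic rows 0.00981 to 0.0132% and 0.00647 to 0.00847%, and TEC rows 0.0830 to 0.124% and 0.0528 to 0.0759%, the latter kinds with no overlap. The part of unspliced or nuclear RNA in the antisense results was not tested.

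**Figure D5:**
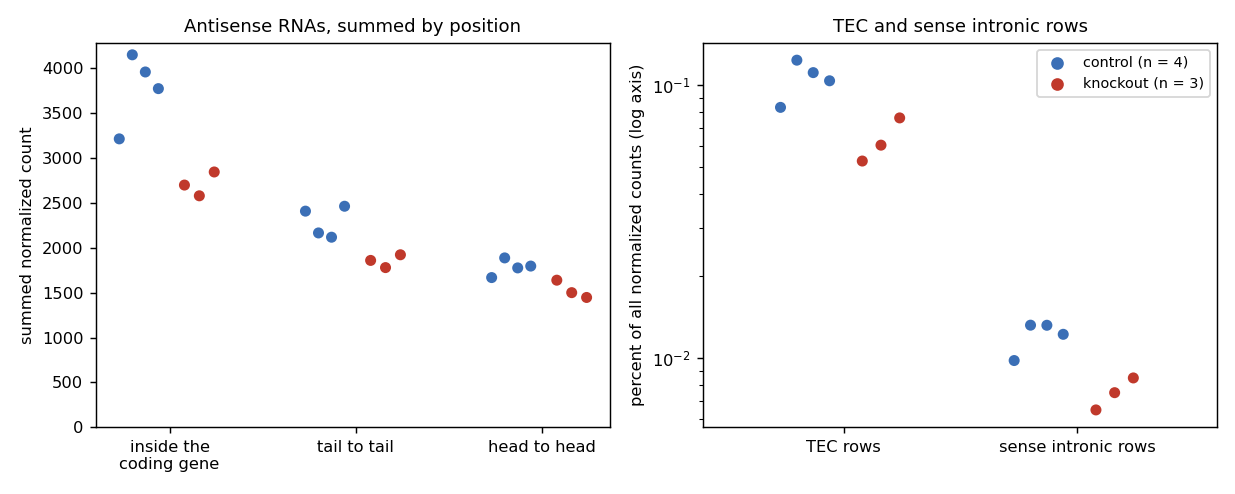
Left, summed normalized counts of the antisense RNAs of 3 positions in each library, with controls in blue and knockouts in red in replicate order; right, the percent of all normalized counts in TEC and sense intronic rows (log axis). In all 5 columns the lowest control lies above the highest knockout.

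Of 23 tested genes of RNA turnover (exosome subunits, its nuclear cofactors and decay factors), 2 (8.7%) were called higher and 1 (4.35%) lower, beside 10.4% and 11.3% of all genes, with a median log2 fold change of -0.01. The exosome subunit genes Exosc3 and Exosc4 were called higher at 0.39 and 0.40 (adjusted p = 0.0082 and 0.0493), and Exosc4 lost the call at 0.0926 to 0.164 without control 1, 2 or 4 or knockout 1 or 2. The adjusted p without controls 1 and 4 was 0.053 for Exosc3 and 0.228 for Exosc4, and without controls 2 and 3 it was 0.0578 and 0.0912. Zfc3h1, of the complex that hands polyadenylated nuclear RNA to the exosome, stood at 1652, 2017, 2166 and 1891 normalized counts in controls and at 1258, 1377 and 1510 in knockouts, and fell by 0.48 (adjusted p = 0.0132, and 0.0888 without controls 2 and 3). Of 22 genes that sense, edit or cut double-stranded RNA, 1 (4.55%) was called higher and 3 (13.6%) lower, shares to be read against the same 10.4% and 11.3%, with a median of 0.02. Dhx58 was higher (adjusted p = 0.0264, and 0.0535 to 0.0704 without control 1 or 4 or knockout 1 or 2, and 0.153 without controls 1 and 4). Among the lower were Ago2 (0.013, with 0.0895 without controls 1 and 4 and 0.0535 without controls 2 and 3) and the receptor gene Tlr3 (0.0175, with 0.0503 and 0.0557 without knockout 2 or 3, 0.102 without controls 1 and 4 and 0.0776 without controls 2 and 3).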

How the data were processed

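RNA from BAL cells of 7 mouse libraries was sequenced as mRNA, per the labels. The submitters' processing notes name the builds GRCm38 and mm10 and the tools STAR 2.5.3a, cutadapt 1.15, DESeq2 and HTSeq, without settings. The authors deposited normalized counts per gene, a signal in which 1 read is worth 0.885 to 1.25 units, so that whole reads could be recovered for 100% of values within 0.01. The log2 fold changes, p-values and scores that the authors deposited in the same table were not used. Totals were 9903284 to 13353733 reads. Intervals from reads cover counting error only.

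Genes with a mean of at least 10 over the 7 libraries (12963) were fitted together with limma 3.58.1 on log2(normalized count + 1), without covariates, with Benjamini-Hochberg adjustment and calls at an adjusted p under 0.05. Coding partners came from the symbol or from opposite-strand overlap in GENCODE M21 (GRCm38), in which 201 of the 202 antisense RNAs were found; Gm28727 was not. The log2 ratio of antisense to coding values was fitted over 1497 overlapping pairs. Knockout replicates carry the numbers of the titles, 1 to 3, which the table's columns number 2 to 4. Deviations from the group means of controls and knockouts of the same number had correlations of -0.229, -0.0253 and -0.188 by the titles. By the columns they were -0.0768, -0.285 and 0.0762. The deviations are centred within each group, so these values cannot show whether libraries were paired. The main fit did not pair them. Alternatives were other pseudocounts (0.5 and 4), no minimum or a mean of 50, TMM and library size scaling, edgeR 4.0.16 and DESeq2 1.42.0 on recovered reads, a replicate block (without control 4), and left-out libraries. The scripts were tested on simulated data.

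The antisense RNAs, lists and alternatives were chosen with earlier results of these data known. Named were Ntn1, Lyz2, antisense RNAs with a coding gene in the symbol and that gene, up to 12 others per direction with the smallest p and their partners, the 5 most abundant, the 2 on each side of the minimum, up to 6 called ratios by p, and up to 2 genes per list and direction.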

Additional observations from a re-analysis of the deposited data

Results flagged for a closer look

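Among the 4 controls, 3 of 105 named genes had 1 library set apart from the others by a gap past Dixon's critical value; chance alone gives about 1 in 20. 1700071M16Rik stood at 284 normalized counts in control 1 and at 453 to 466 in the others. 5830468F06Rik stood at 39.1 in control 2 and at 23.4 to 25.7 in the others, and it was called higher in knockouts without control 2 as well. Map2k3, the partner of Map2k3os and a kinase gene of the p38 pathway, stood at about 1130 in control 1 and at 1020 to 1030 in the others.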

How the results depend on the processing

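With pseudocounts of 0.5 and 4, no minimum, TMM or library size scaling, edgeR or DESeq2, the antisense RNAs called lower numbered 41 to 44 and higher 8 to 11, beside 44 and 10. At a mean of at least 50, which leaves 40 to be tested, 13 were lower and 5 higher, and the ratios had 7 lower and 2 higher. Of all genes in that fit, 12.1% were called lower and 11.8% higher. With the replicate block by title number, 12 antisense RNAs were lower and 4 higher, 7 partners lower and 10 higher, and 7 ratios lower and 2 higher. That fit also leaves out control 4, which has no knockout of its number, so its counts do not show the effect of the block alone. Of all genes, 2.87% were called lower and 3.28% higher in it. No control correlated best with the knockout of its own title number, whereas by column number control 4 did (0.0762). The deviations are centred within each group, so this ranking cannot show which libraries, if any, were paired. Without controls 1 and 4 together the lower and higher counts of antisense RNAs, partners and ratios were 15 and 5, 10 and 10, and 6 and 0. Without controls 2 and 3 together they were 12 and 5, 17 and 10, and 2 and 0. Of all genes, 4.45% were called lower and 4.8% higher without controls 1 and 4, and 4.78% and 4.74% without controls 2 and 3. Leaving out 1 library at a time gave 19 to 41 antisense RNAs lower and 5 to 8 higher, 20 to 33 partners lower and 9 to 17 higher, and 8 to 35 ratios lower and 2 to 5 higher. Those fits hold fewer samples, and in them 6.25% to 9.97% of all genes were called lower and 5.35% to 9.05% higher. Of the named genes, pairs and counts by position under the alternatives, 1773 values kept their direction and their side of the threshold, 213 were no longer called, 12 became called and 71 moved, and no called direction turned. The ratio was not run without a minimum. Depth limits the rarest: 94 of the 202 had means of 10 to under 20 normalized counts.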
